A study of Mus musculus with 6 samples.

Results

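Egr1, Egr2, Fos, Fosl2, Jun, Junb, Jund, Ier2, Ier3 and Atf3 encode transcription factors and small regulators of the immediate-early response. They were followed in single bone marrow-derived macrophages before and after lipopolysaccharide (LPS). The genes were chosen by name, and all 10 were among the 18429 genes of the count matrix. Each of them had at least 100 transcripts, counted as unique molecular identifiers (UMIs), over the 1362 cells. Wild-type and Rad21-/- macrophages were left untreated or received 10 ng/ml of LPS for 2 h or 8 h, and each of the 6 conditions was a single sample. Cells of both genotypes came from mice with creERT2/creERT2 at the Rosa26 locus. Both were given 200 nM of 4-hydroxytamoxifen in culture and were used at day 7, so that exposure to active Cre was common to every sample. The Rad21 alleles were floxed in the Rad21-/- cells only, and deletion took place in the dish, in macrophages that had already formed with normal cohesin.

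Immediate-early genes are transcribed within minutes of a stimulus because the factors that switch them on are already present in resting cells. In macrophages, LPS acts through the receptor TLR4 and its MAP kinase and NF-kappaB branches. The proteins that these genes encode then act on later genes: FOS and JUN family members pair through leucine zippers to form AP-1, EGR proteins bind GC-rich sites through zinc fingers, and ATF3 is a leucine zipper factor that dampens inflammatory genes. RAD21 is the subunit that closes the cohesin ring, and cohesin works with CTCF to organise the genome into domains of genes and enhancers.

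The share of cells with a Rad21 UMI was 18.7% to 26.9% in the wild-type samples and 2.96% to 6.45% in the Rad21-/- samples, so every sample fitted its genotype label. All 8 macrophage markers were found in every sample. Their summed level was 7745 to 10365 CPM (counts scaled to 1000000 UMIs per cell) in wild-type and 6164 to 6855 CPM in Rad21-/- cells. Markers of neutrophils, dendritic cells, B cells and fibroblasts summed to at most 32.4 CPM each. In the matrix were 2 of 6 neutrophil, 2 of 6 dendritic cell, 1 of 4 B cell and 4 of 5 fibroblast markers, so these sums rest on few genes. None of 3 T cell markers was in the matrix. A dendritic cell marker was found in 14.2% to 18.8% of cells per sample. The median depth was 5577 to 7056 UMIs per cell. A small set of 17 wells held more than 25000 UMIs each, and such wells carried 45.5% of the UMIs counted at 2 h in wild-type cells. Levels are therefore given as the mean CPM over cells, in which every cell weighs the same, and shares of cells with a UMI are given both at full depth and after each cell was thinned at random to 3800 UMIs. Every one of the 24 library pools belonged to 1 time, so pool and time cannot be told apart, whereas 18 pools held at least 10 cells of each genotype. No well of a pool carried both genotypes, so place on the plate could differ between genotypes inside a pool. Pools are splits of the same samples and are no replicates, and shares inside pools are given at full depth. There are no replicate samples, so no test was made, and every interval is a 95% interval of counting error only.

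The genes are compact. Their median span in the RefSeq annotation of GRCm38 was 3.29 kb, against 22.8 kb over 16122 matched genes of the matrix, and all 10 were shorter than that median. Ier2, Junb and Jund lie on chromosome 8, with 314056 bases between Ier2 and Junb. Promoter windows of GRCm38.p6 were held for 8 of the 10 genes and covered 12 start sites. Motifs were searched on both strands in the 250 bases before each start: the cAMP response element (CRE, TGACGTCA) and its half-site (TGACGT, which the full CRE contains), AP-1 (TGANTCA), EGR (GCGNGGGCG), the CArG box bound by serum response factor, and an NF-kappaB site. The last pair are given by name. The half-site was added after the windows had been read. Among 32851 windows of the same length, 1.55% held a CRE, 6.47% the half-site, 6.75% AP-1, 4.70% EGR, 1.47% a CArG box and 3.90% an NF-kappaB site.

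Windows are shown for the 5 genes in which a match to any of these motifs was found. Their levels at the sampled times, described below, include one highest at 2 h (Egr2), one lowest at 8 h (Fos) and a course that differs between genotypes (Fosl2). Levels between the sampled times were not measured. Ier3 stayed high at 8 h in both genotypes. Atf3 was more than 2-fold above untreated at 8 h in both genotypes. From 2 h to 8 h it was more than 2-fold lower in Rad21-/- cells only. A link between motifs and time courses was not tested. Bases are written 5′ to 3′ along the transcribed strand and capitals mark motif matches.
Egr2, chr10:67537619-67537868, plus strand: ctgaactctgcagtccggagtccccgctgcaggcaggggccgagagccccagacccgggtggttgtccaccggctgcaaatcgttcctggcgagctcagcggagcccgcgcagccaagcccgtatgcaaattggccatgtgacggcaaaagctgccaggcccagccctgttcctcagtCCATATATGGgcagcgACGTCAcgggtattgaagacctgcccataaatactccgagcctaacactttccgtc
Fos, chr12:85473640-85473889, plus strand: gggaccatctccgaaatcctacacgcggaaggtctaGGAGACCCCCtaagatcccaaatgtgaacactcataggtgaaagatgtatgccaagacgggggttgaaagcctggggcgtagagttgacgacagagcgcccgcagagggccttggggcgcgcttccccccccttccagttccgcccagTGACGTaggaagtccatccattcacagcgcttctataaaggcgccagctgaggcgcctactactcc
Fosl2, chr5:32136222-32136471, plus strand: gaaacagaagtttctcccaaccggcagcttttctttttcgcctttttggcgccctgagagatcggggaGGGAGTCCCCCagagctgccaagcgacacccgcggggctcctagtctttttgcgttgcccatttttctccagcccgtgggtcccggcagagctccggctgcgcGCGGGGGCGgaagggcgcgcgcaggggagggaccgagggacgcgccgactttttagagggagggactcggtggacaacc
Ier3, chr17:35821463-35821712, plus strand: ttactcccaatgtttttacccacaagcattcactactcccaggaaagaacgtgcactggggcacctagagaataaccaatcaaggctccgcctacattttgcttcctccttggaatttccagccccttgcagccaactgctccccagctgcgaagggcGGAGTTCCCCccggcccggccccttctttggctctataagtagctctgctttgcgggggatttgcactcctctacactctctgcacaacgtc
Atf3, chr1:191183334-191183583, minus strand: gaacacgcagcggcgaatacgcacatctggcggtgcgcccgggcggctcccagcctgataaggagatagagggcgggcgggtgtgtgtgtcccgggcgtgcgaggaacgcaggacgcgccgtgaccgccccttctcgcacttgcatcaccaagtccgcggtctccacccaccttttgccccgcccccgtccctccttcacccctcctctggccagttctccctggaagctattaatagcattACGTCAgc

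The Egr2 window belongs to the third of its 5 starts in the table. It held a CArG box that ended 63 bases before the start, followed by a CRE half-site that ended 51 bases before the start. Of the 5 Egr2 windows, 4 held a CArG box, but windows 3, 4 and 5 overlap and hold the same box (CCATATATGG). The box in window 2 was a different one (CCTTTTTTGG). The Fos window held a CRE half-site 66 to 61 bases before the start and an NF-kappaB match further away. The Fosl2 window held an EGR match 79 to 71 bases before the start and a pair of overlapping NF-kappaB matches. The Ier3 window held an NF-kappaB match 92 to 83 bases before the start. In the Atf3 window, a CRE half-site ended 3 bases before the start. No match to these letters was found in the windows of Jun, Junb and Jund. A match is a description of letters, and binding was not measured.

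In wild-type cells, 2 h of LPS brought 7 of the 10 genes to more than 2-fold higher mean CPM and none to more than 2-fold lower. Over the 11913 genes with at least 100 UMIs, 4.21% were past 2-fold higher and 4.54% past 2-fold lower. Ratios are log2 ratios of mean CPM with 1 CPM added to each mean, which understates differences of genes at low level. The 7 genes were Egr1, Egr2, Fosl2, Junb, Ier2, Ier3 and Atf3, and the median log2 ratio of the 10 genes was 1.56, against -0.09 for all genes tested. At 8 h of LPS, 4 genes were past 2-fold higher than in untreated cells (Fosl2, Junb, Ier3 and Atf3) and Fos was past 2-fold lower. In that comparison 6.3% of all genes were past 2-fold higher and 17.2% lower, the median over all genes was -0.26 and the median of the 10 genes was 0.24. From 2 h to 8 h, 5 genes were past 2-fold lower (Egr1, Egr2, Fos, Junb and Ier2) and none was higher, with 12.7% and 5.84% of all genes, and the median ratio of the 10 genes was -0.89 against -0.20 over all genes.

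At 2 h in Rad21-/- cells, 8 genes were past 2-fold higher: Egr1, Egr2, Fosl2, Jun, Junb, Jund, Ier3 and Atf3. Fos was past 2-fold lower. The background was 4.28% of genes higher and 3.65% lower, and the median log2 ratio was 2.08 over the 10 genes and -0.04 over all genes. When UMIs were summed over cells before scaling, Fos was no longer past 2-fold lower and 8 genes remained higher. At 8 h against untreated, Junb, Ier3 and Atf3 were past 2-fold higher and Egr1, Fos and Ier2 past 2-fold lower, with 6.81% and 6.39% of all genes. The median log2 ratio was then 0.40 over the 10 genes and -0.02 over all genes. From 2 h to 8 h, 8 genes were past 2-fold lower and none higher, where 5.58% and 6.33% of all genes were, and the median ratios were -1.61 and 0.00. Ier3 and Jund were the genes that stayed within 2-fold. The 2 h and 8 h comparisons share their untreated sample within each genotype, and the same 6 samples serve the comparisons of genotypes.

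**Figure D1:**
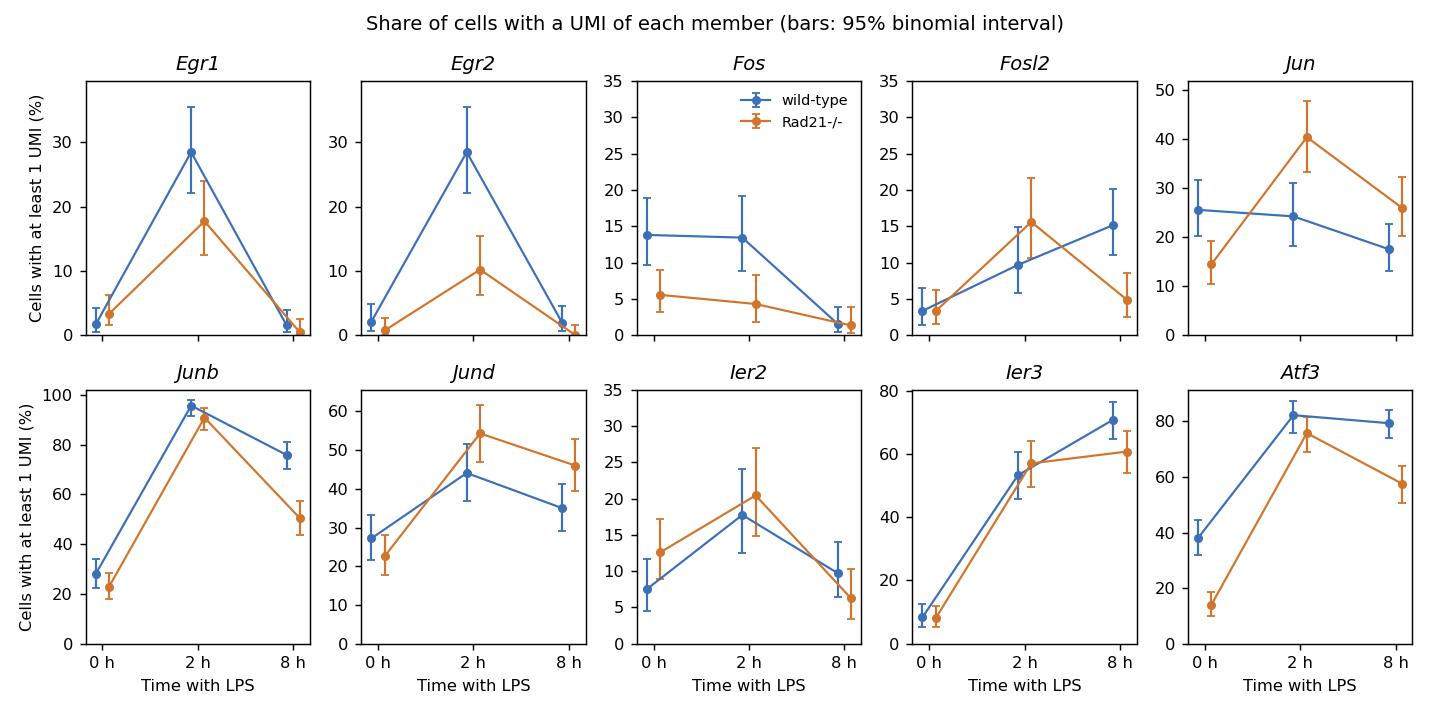
Share of cells with at least 1 UMI of each gene (y axis, percent of cells) by hours of LPS (x axis) in wild-type (blue) and Rad21-/- (orange) cells; bars are 95% binomial intervals, each panel has its own y scale, and each point is 1 sample. Of the sampled times, Egr1 and Egr2 are highest at 2 h in both genotypes. Ier3 stays high at 8 h, and Atf3 and Junb have lower Rad21-/- than wild-type shares at 8 h.

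Egr1 and Egr2, zinc finger factors with related DNA-binding domains, were found in few resting cells and in the most cells at 2 h. Egr1 was detected in 1.67% of untreated wild-type cells (interval 0.458% to 4.23%), in 28.5% at 2 h (22.1% to 35.6%) and in 1.56% at 8 h (0.426% to 3.94%). The Rad21-/- samples had 3.33% (1.54% to 6.23%), 17.7% (12.5% to 24%) and 0.446% (0.0113% to 2.46%). The mean level of Egr1 went from 2.96 CPM to 62.2 CPM and back to 1.61 CPM in wild-type cells, and from 7.42 CPM to 34.9 CPM and 1.22 CPM in Rad21-/- cells. The 2 h samples thus stood apart from the other samples in both genotypes. The log2 ratio of 2 h to untreated was 4.00 in wild-type and 2.09 in Rad21-/- cells, and the difference between these was not tested. A single UMI was counted in the 224 Rad21-/- cells at 8 h against 49 UMIs at 2 h, a ratio of summed CPM of 0.0138 (0.000344 to 0.0809).

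Egr2 was found in 2.09% of untreated wild-type cells (0.683% to 4.81%), in 28.5% at 2 h (22.1% to 35.6%) and in 1.95% at 8 h (0.635% to 4.48%). In Rad21-/- cells it was found in 0.741% (0.0898% to 2.65%), 10.2% (6.26% to 15.5%) and none of 224 cells, which allows a share of up to 1.34% with 3 cells as the limit and 1.63% as the upper end of the interval. Mean levels were 4.00, 53.4 and 4.25 CPM in wild-type cells and 0.312, 19.2 and 0 CPM in Rad21-/- cells. The wild-type 2 h sample was the highest of the 6 and the Rad21-/- 2 h sample came next, with intervals that do not overlap. At 8 h in Rad21-/- cells Egr2 was at least 17.2-fold lower than at 2 h, with 3 UMIs taken as the floor of the empty sample. The interval of that ratio of summed CPM, which also counts the error of the 35 UMIs at 2 h, reached 0.0754. At 2 h, Egr2 was lower in Rad21-/- than in wild-type cells by 18.3 percentage points (10.3 to 26 lower), with a log2 ratio of mean CPM of -1.43. After thinning, the shares were 17% and 5.19%, and the log2 ratio of thinned UMIs was -1.58 (-2.77 to -0.52).

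For Egr1 the genotype difference at 2 h was smaller at equal depth. At full depth its share was lower in Rad21-/- cells by 10.8 percentage points (interval 2.18 to 19.1 lower). In thinned cells the shares were 17.6% in wild-type and 15.6% in Rad21-/- cells, a difference of -1.99 percentage points with an interval from -10.1 to 6.29, and the log2 ratio of thinned UMIs was -0.52 (-1.29 to 0.23). The genotype difference in Egr1 at 2 h was thus not detectable at this depth. Inside the 4 pools at 2 h, again at full depth, both Egr1 and Egr2 were found in a smaller share of Rad21-/- than wild-type cells in 4 of 4 pools. The pool differences ranged from -17.3 to -6.52 percentage points for Egr1 and from -26.4 to -8.40 for Egr2.

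Fos and Fosl2 encode the FOS-family partners in AP-1, and Fosl2 is the slower of these genes in many cell types. Fos was found in 13.8% (9.70% to 18.8%) of untreated wild-type cells, in 13.4% (8.89% to 19.2%) at 2 h and in 1.56% (0.426% to 3.94%) at 8 h. The Rad21-/- samples had 5.56% (3.14% to 9.0%), 4.30% (1.87% to 8.30%) and 1.34% (0.277% to 3.86%). Fos was thus found in untreated cells, was no higher at 2 h, and was at its lowest at 8 h in both genotypes. No time before 2 h of LPS was sampled, so an earlier rise of Fos would not be seen. Its mean level was 33.7, 21 and 0.873 CPM in wild-type and 11.9, 4.85 and 1.37 CPM in Rad21-/- cells. The log2 ratio of 8 h to untreated was -4.21 in wild-type and -2.45 in Rad21-/- cells. The Fos level was lower in Rad21-/- cells by a log2 ratio of -1.42 untreated and -1.91 at 2 h. In thinned UMIs these ratios were -1.46 (-2.86 to -0.21) and -2.02 (-4.47 to -0.15). Fos was found in a smaller share of Rad21-/- cells in 7 of 8 untreated pools, with an equal share in the remaining pool, and in 4 of 4 pools at 2 h. At 8 h too few UMIs were counted to compare the genotypes.

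Fosl2 was found in 3.35% (1.46% to 6.49%), 9.68% (5.84% to 14.9%) and 15.2% (11% to 20.2%) of wild-type cells at 0, 2 and 8 h. The Rad21-/- shares were 3.33% (1.54% to 6.23%), 15.6% (10.7% to 21.6%) and 4.91% (2.48% to 8.62%). The highest wild-type sample was therefore that of 8 h and the highest Rad21-/- sample that of 2 h. Mean levels were 6.56, 14.9 and 24.1 CPM in wild-type and 6.27, 29.7 and 7.13 CPM in Rad21-/- cells. At 8 h the log2 ratio of Rad21-/- to wild-type cells was -1.63 in mean CPM and -2.77 (-5.15 to -1.04) in thinned UMIs, and the share was lower in Rad21-/- cells in 5 of 6 pools. At 2 h the ratio was 0.95 in mean CPM and 0.73 (-0.45 to 1.97) in thinned UMIs, so that a genotype difference was not detectable there. In wild-type cells the log2 ratio of 1.07 at 2 h against untreated lay close to the 2-fold limit and came under it in 4 of 16 cases when a pool was left out, with a lowest value of 0.75 without the sixth pool at 2 h in order of name.

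Jun, Junb and Jund encode the JUN-family partners of AP-1. JUN is the strong activator of the family, whereas JUNB and JUND are weaker and can oppose it. Junb was found in 28.0% (22.4% to 34.2%) of untreated wild-type cells, 95.7% (91.7% to 98.1%) at 2 h and 75.9% (70.2% to 81%) at 8 h. The Rad21-/- samples had shares of 23.0% (18.1% to 28.4%), 90.9% (85.8% to 94.6%) and 50.4% (43.7% to 57.2%). Junb was thus found in most cells of both 2 h samples, and at 8 h the genotypes lay apart. Its mean level was 63.1, 797 and 292 CPM in wild-type and 49.8, 540 and 116.1 CPM in Rad21-/- cells. From untreated to 2 h the log2 ratio was 3.64 in wild-type and 3.41 in Rad21-/- cells. At 8 h the log2 ratio of Rad21-/- to wild-type cells was -1.33 in mean CPM and -1.30 (-1.67 to -0.94) in thinned UMIs, and the thinned shares were 32.0% and 65.4%. The Rad21-/- share was lower in 6 of 6 pools at 8 h, by 22.1 to 34.9 percentage points. At 2 h the thinned ratio was -0.72 (-0.94 to -0.50), under the 2-fold limit. In untreated cells the difference was -5.07 percentage points (-12.6 to 2.49) and was not detectable.

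Jun was found in 25.5% (20.1% to 31.5%), 24.2% (18.2% to 31.0%) and 17.5% (13.1% to 22.7%) of wild-type cells at 0, 2 and 8 h. The Rad21-/- shares were 14.4% (10.5% to 19.2%), 40.3% (33.2% to 47.7%) and 25.9% (20.3% to 32.1%). The untreated sample was the highest of the wild-type samples in mean CPM and the lowest of the Rad21-/- samples. Mean levels were 56.2, 48.3 and 31.6 CPM in wild-type and 29.3, 93.9 and 46.2 CPM in Rad21-/- cells. The log2 ratio of 2 h to untreated was -0.22 in wild-type and 1.65 in Rad21-/- cells, and in thinned UMIs it was -0.35 (-1.14 to 0.42) and 1.74 (1.05 to 2.46). At 2 h, thinned UMIs of Jun were higher in Rad21-/- cells by a log2 ratio of 1.36 (0.67 to 2.10), while the ratio in mean CPM was 0.95. The share was higher in Rad21-/- cells in 4 of 4 pools at 2 h, by 8.70 to 27.8 percentage points, and lower in 7 of 8 untreated pools.

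Jund was found in 27.2% (21.7% to 33.3%), 44.1% (36.8% to 51.5%) and 35% (29.2% to 41.2%) of wild-type cells and in 22.6% (17.7% to 28.1%), 54.3% (46.9% to 61.6%) and 46.0% (39.3% to 52.7%) of Rad21-/- cells. Mean levels were 58.9, 101 and 69.9 CPM and 46.7, 143 and 91.2 CPM. The 2 h sample was the highest in each genotype. From untreated to 2 h the log2 ratio was 0.77 in wild-type and 1.59 in Rad21-/- cells. Jund was found in a larger share of Rad21-/- cells in 4 of 4 pools at 2 h and in 5 of 6 at 8 h. Its thinned ratio of Rad21-/- to wild-type cells was 0.44 (-0.08 to 0.96) at 2 h and 0.72 (0.17 to 1.29) at 8 h, both under the 2-fold limit.

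Atf3 is induced by many kinds of stress and by TLR ligands. It was found in 38.1% (31.9% to 44.6%), 82.3% (76% to 87.5%) and 79.4% (73.9% to 84.2%) of wild-type cells at 0, 2 and 8 h. The Rad21-/- samples had shares of 14.1% (10.2% to 18.8%), 75.8% (69% to 81.8%) and 57.6% (50.8% to 64.1%). The Rad21-/- sample was the lower of the genotypes at every time, with intervals that overlap only at 2 h. Mean levels were 117, 387 and 344 CPM in wild-type and 33.2, 317 and 142 CPM in Rad21-/- cells. The log2 ratio of Rad21-/- to wild-type cells was -1.79 untreated, -0.29 at 2 h and -1.27 at 8 h. In thinned UMIs the ratios were -1.52 (-2.21 to -0.86), -0.16 (-0.45 to 0.14) and -1.53 (-1.88 to -1.20). Inside pools, Atf3 was found in a smaller share of Rad21-/- cells in 8 of 8 untreated and 6 of 6 pools at 8 h, and at 2 h the pools split 2 to 2. The step from untreated to 2 h was a log2 ratio of 1.71 in wild-type and 3.22 in Rad21-/- cells.

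Ier2 and Ier3 are immediate-early genes without a classical DNA-binding domain. IER2 is a small nuclear protein, and IER3 acts on survival and NF-kappaB signalling. Ier3 was found in 8.37% (5.19% to 12.6%), 53.2% (45.8% to 60.6%) and 70.8% (64.8% to 76.3%) of wild-type cells and in 8.15% (5.18% to 12.1%), 57% (49.5% to 64.2%) and 60.7% (54% to 67.2%) of Rad21-/- cells. Its mean level was 15.3, 193 and 311 CPM in wild-type and 18.3, 194 and 189 CPM in Rad21-/- cells. Ier3 was the gene whose wild-type level was highest at 8 h together with Fosl2, while its Rad21-/- levels at 2 h and 8 h lay within 1.03-fold of each other. From untreated to 2 h the log2 ratio was 3.58 and 3.34. The genotypes did not differ detectably untreated or at 2 h, where the thinned ratio was -0.04 (-0.43 to 0.35). At 8 h it was -0.82 (-1.12 to -0.52), under the 2-fold limit, and the share was lower in Rad21-/- cells in 5 of 6 pools.

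Ier2 was found in 7.53% (4.52% to 11.6%), 17.7% (12.5% to 24.0%) and 9.73% (6.39% to 14.0%) of wild-type cells and in 12.6% (8.88% to 17.2%), 20.4% (14.9% to 26.9%) and 6.25% (3.46% to 10.3%) of Rad21-/- cells. Mean levels were 12.4, 34.4 and 14.6 CPM and 27.4, 41.3 and 6.89 CPM. The 2 h sample was the highest in both genotypes. The log2 ratio of 2 h to untreated was 1.41 in wild-type and 0.57 in Rad21-/- cells, with thinned ratios of 1.01 (-0.14 to 2.22) and 0.99 (0.00 to 2.02). Without the fifth pool at 2 h the wild-type ratio was 0.96. No genotype difference in Ier2 was detectable in thinned UMIs at any time.

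Between genotypes, the untreated Rad21-/- sample had 2 of the 10 genes past 2-fold higher (Egr1 and Ier2) and 3 past 2-fold lower (Egr2, Fos and Atf3). Over all genes 2.13% were higher and 4.8% lower, and the median log2 ratio was -0.33 for the 10 genes and -0.05 for all genes. Egr1 and Ier2 were each within 2-fold after thinning to 3800 UMIs, and with UMIs summed before scaling 1 gene was higher and 3 lower. Egr2 rested on 2 and 5 UMIs, with a ratio of summed CPM of 0.323 (0.0307 to 1.97). At 2 h, Egr2 and Fos were past 2-fold lower and none was higher, against 6.25% and 3.6% of all genes, with medians of -0.14 and 0.01. With equal weight per pool, Jun was also past 2-fold higher, and without the fifth pool at 2 h so were Jun (1.16) and Fosl2 (1.04), while Egr1 was past 2-fold lower (-1.01). At 8 h, Egr2, Fosl2, Junb and Atf3 were past 2-fold lower and none was higher, against 4.16% and 9.09% of all genes. The median of the 10 genes at 8 h was -0.85 while that of all genes was 0.21. Egr2 at 8 h rested on 6 wild-type UMIs and none in Rad21-/- cells. With the floor of 3 UMIs it was at least 2.28-fold lower in Rad21-/- cells, while the interval of the ratio of summed CPM, which also counts the error of the 6 UMIs, reached 0.746.

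**Figure D2:**
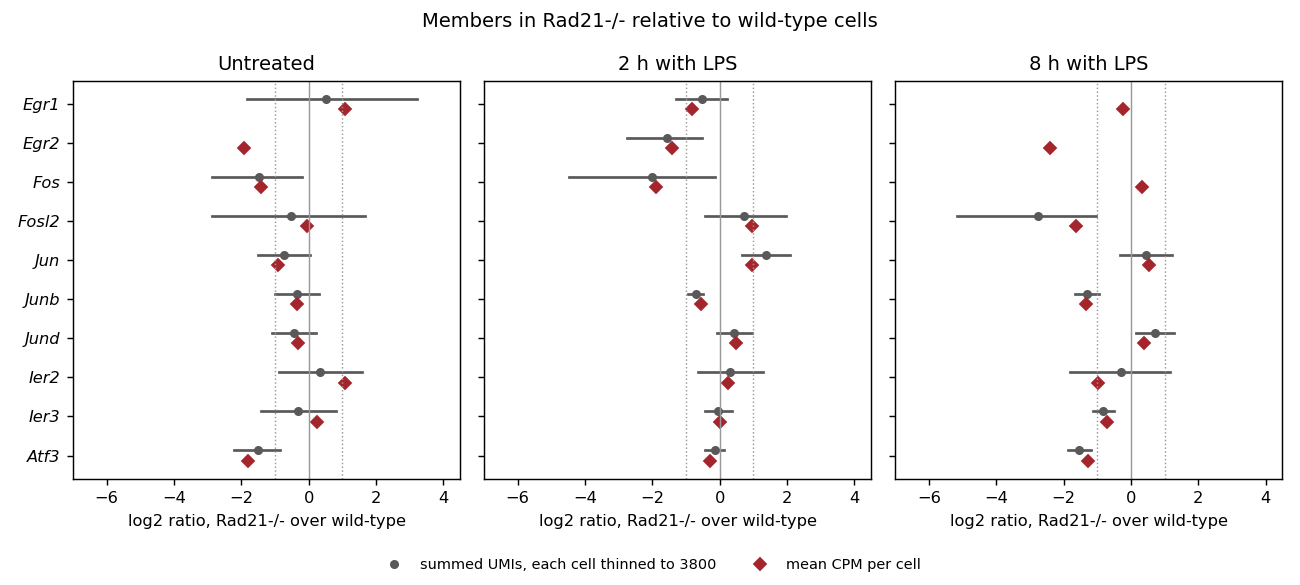
Log2 ratio of Rad21-/- to wild-type cells (x axis) for each gene (y axis) at the 3 times, as mean CPM per cell with 1 CPM added (red diamonds) and as UMIs of cells thinned to 3800 UMIs (grey points, with 95% counting intervals, left out where a sample had no thinned UMI); dotted lines mark 2-fold. Atf3 lies past 2-fold lower untreated and at 8 h but not at 2 h, and the Egr2 diamond at 8 h stands on 0 UMIs in Rad21-/- cells, so its place depends on the added 1 CPM.

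Other measures differed between genotypes or with time. The macrophage markers summed to 9408, 10365 and 7745 CPM in wild-type cells at 0, 2 and 8 h and to 6179, 6855 and 6164 CPM in Rad21-/- cells, and Cd14, a co-receptor for LPS, had a mean of 638 CPM in untreated wild-type and 135 CPM in untreated Rad21-/- cells. Genes of handling and heat shock, which can also be set off by tissue handling together with Fos and Jun, summed to 573, 629 and 622 CPM in wild-type and 406, 501 and 700 CPM in Rad21-/- cells. Within this list Hspa1b was higher at 2 h than untreated in both genotypes. It was at 1.55 and 17.2 CPM in wild-type cells and at 2.69 and 16.5 CPM in Rad21-/- cells. The part of these measures in the values of the 10 genes was not tested.

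**Figure D3:**
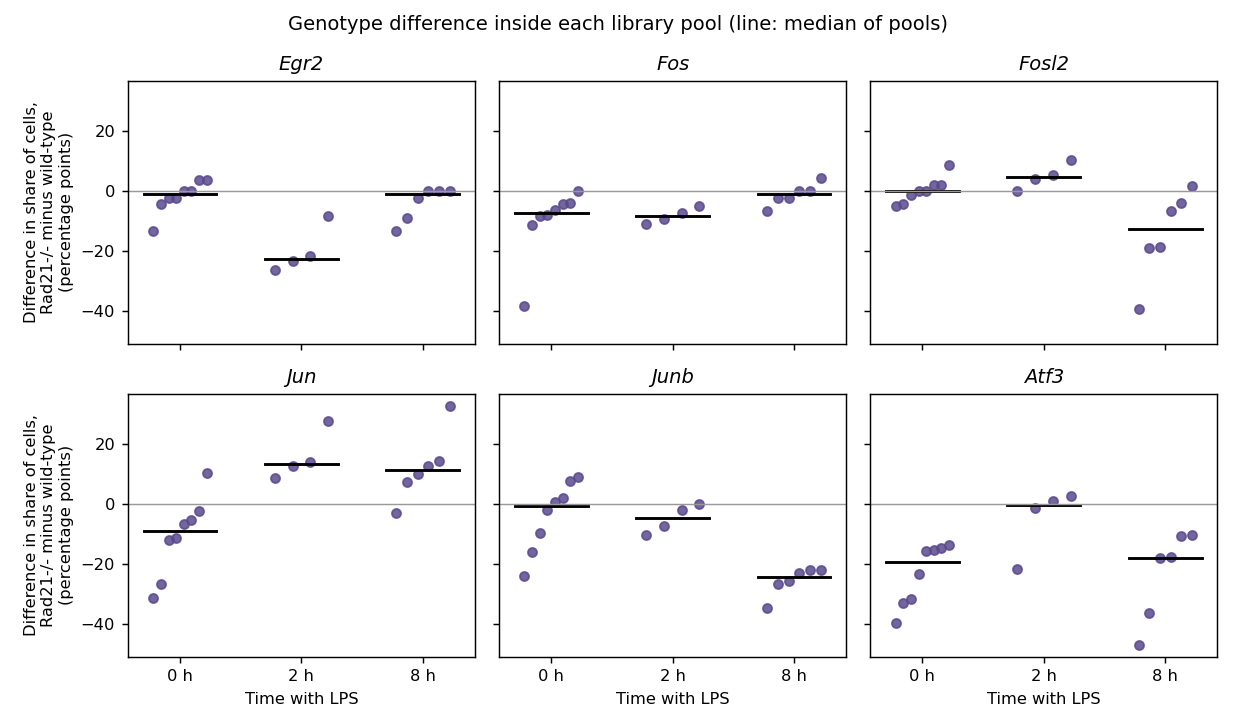
Difference in the share of cells with a UMI, Rad21-/- minus wild-type (y axis, percentage points), inside each library pool that held at least 10 cells of both genotypes (points) by hours of LPS (x axis), for 6 of the genes; black lines are medians of pools. Atf3 lies below 0 in 8 of 8 untreated and 6 of 6 pools at 8 h, Junb in 6 of 6 pools at 8 h, and Jun above 0 in 4 of 4 pools at 2 h.

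The step from untreated to 2 h can be split into the share of thinned cells with a UMI and the mean UMIs per positive cell, which add up on the log2 scale. For Egr1 in wild-type cells the share gave 3.49 and the level in positive cells 0.46. For Atf3 in Rad21-/- cells the parts were 2.47 and 0.75. Among the genes with thinned UMIs in both samples, which leaves out Egr2 in Rad21-/- cells, Junb had the largest level part, at 1.45 beside 2.18 for the share in wild-type cells and 1.07 beside 2.20 in Rad21-/- cells. Junb was found in 87.3% of thinned wild-type cells at 2 h, so its share had little room left. For the drop of Atf3 from 2 h to 8 h in Rad21-/- cells, the share gave -0.86 and the level -0.47. For Junb at 8 h in Rad21-/- against wild-type cells, the parts were -1.03 and -0.27. Positive cells with 1 UMI are the lowest that can be counted, so the level part is bounded for genes near the detection limit.

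The number of the 10 genes found in a cell was higher after LPS. At equal depth a wild-type cell had UMIs of 1.10 of the genes on average when untreated, 2.93 at 2 h and 2.36 at 8 h. Rad21-/- cells had 0.695, 2.88 and 1.55. The share of cells without any of them was 28.6% (22.4% to 35.6%), 3.03% (0.991% to 6.93%) and 4.82% (2.43% to 8.47%) in wild-type cells. Among Rad21-/- cells it was 48.0% (41.3% to 54.8%), 1.30% (0.158% to 4.61%) and 14.3% (9.78% to 19.9%). The genotypes were thus close together at 2 h and apart at the other times. Cells with 4 or more of the genes made up 32.7% (25.6% to 40.5%) of wild-type and 25.3% (18.7% to 33%) of Rad21-/- cells at 2 h. At 8 h they made up 15.8% (11.3% to 21.2%) and 3.45% (1.40% to 6.98%).

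**Figure D4:**
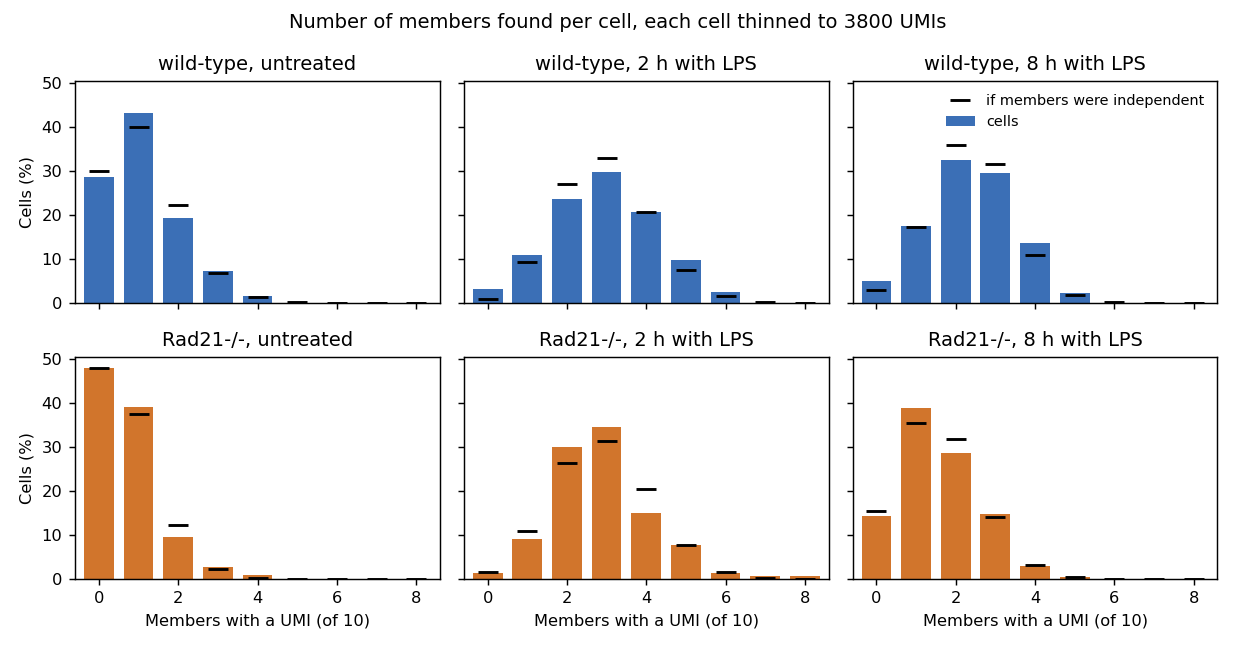
Number of the 10 genes with a UMI in a cell (x axis) and the percentage of cells (y axis) in each of the 6 samples, with every cell thinned to 3800 UMIs; black marks give the share that would result if the genes were detected independently. Bars and marks lie close together in every sample, with the largest excess of variance in wild-type cells at 2 h, where 32.7% of cells held 4 or more.

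If the genes were detected independently of each other, the number per cell would have a variance set by the shares alone. The measured variance was 1.25 times that value in wild-type cells at 2 h and 1.18 times at 8 h, and 0.991 times in untreated cells. In Rad21-/- cells the ratios were 1.08, 1.06 and 1.00 at 0, 2 and 8 h. At full depth they were 1.08 to 1.84, where cells of different depth are mixed. Pairs were then compared within pools, for genes found in 10% to 90% of thinned cells of a sample, by the Mantel-Haenszel odds ratio. The median over pairs was 1.17 in wild-type cells at 2 h (28 pairs), 1.17 at 8 h (10 pairs) and 0.875 untreated (6 pairs), and 1.12, 0.853 and 1.59 in Rad21-/- cells at 2 h (28 pairs), 8 h (10 pairs) and untreated (3 pairs). Over all gene pairs in the same range of shares the median was 0.990 to 0.995. These are descriptions, since pairs share cells and genes.

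Egr1 and Atf3 were the pair with the highest odds ratio in wild-type cells at 2 h, at 3.99. A total of 25 thinned cells held both where 18.8 would under independence. Egr1 and Ier3 shared 18 cells against 12.1 (odds ratio 2.79), and Egr2 and Ier3 shared 15 against 11.7 (2.19). Egr1 and Egr2 shared 6 thinned cells against 4.92 (1.28), and 20 cells against 15.1 at full depth. At the other end, Egr2 and Jun shared 1 thinned cell against 3.39 (odds ratio 0.171), and Egr1 and Jund shared 4 against 8.08 (0.397). At full depth Egr2 and Jun shared 15 cells against 12.8 and Egr1 and Jund 26 against 23.4. The full-depth counts, that of Egr1 and Egr2 included, mix cells of different depth, which raises the number of shared cells. They therefore cannot decide whether the thinned values hold.

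In Rad21-/- cells at 2 h the highest pair was Junb and Ier3, with 60 thinned cells against 50.3 and an odds ratio of 5.49. At 8 h in wild-type cells Junb and Ier3 shared 94 cells against 83.6 (odds ratio 2.09), Junb and Jund 33 against 26.8 (2.52), and Junb and Atf3 102 against 103.3 (0.882). The lowest pair in Rad21-/- cells at 2 h was Fosl2 and Atf3, with 4 cells against 9.56 and an odds ratio of 0.204. Jun and Atf3 had odds ratios of 1.89, 2.00 and 2.01 in wild-type cells at 0, 2 and 8 h, and of 0.760 at 2 h and 2.17 at 8 h in Rad21-/- cells. No difference between samples in these odds ratios was tested.

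**Figure D5:**
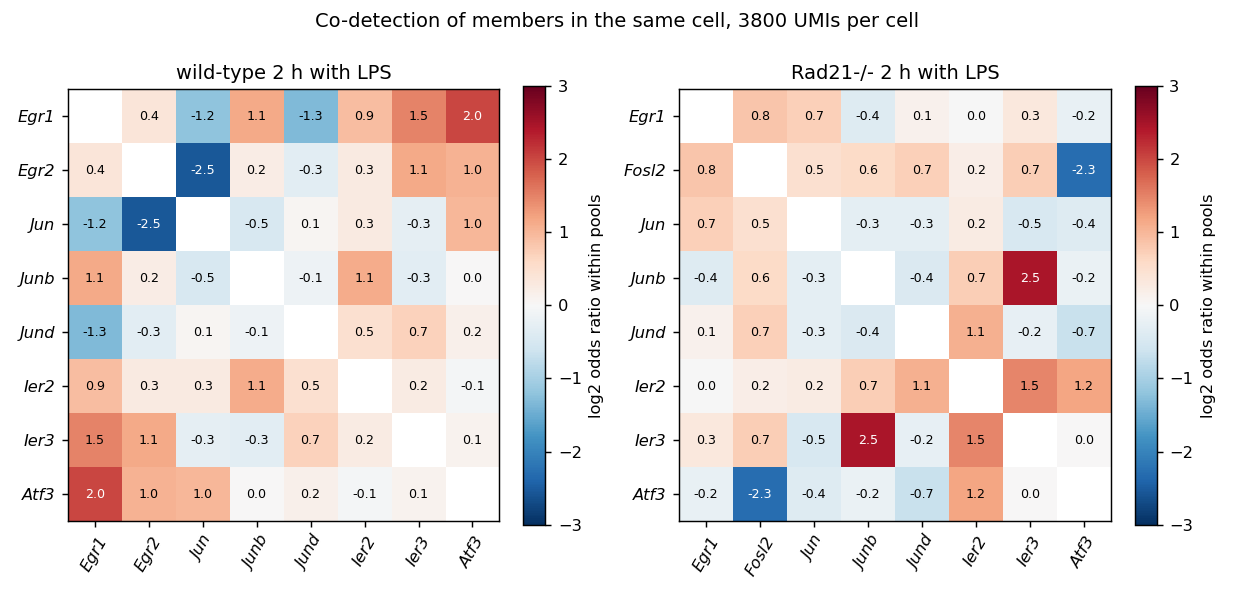
Co-detection of gene pairs in the same cell at 2 h of LPS in wild-type (left) and Rad21-/- cells (right), as the log2 of the Mantel-Haenszel odds ratio within library pools (colour and number), for genes on both axes found in 10% to 90% of thinned cells of that sample. The strongest positive pair is Egr1 with Atf3 in wild-type and Junb with Ier3 in Rad21-/- cells.

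The genes whose mean level ran most like that of Egr1 over the 6 samples were Pla1a, Syp and Slc22a15, with Pearson r of log2(mean CPM + 1) of 0.995, 0.995 and 0.989. For Egr2 they were Celf4, Tgif1 and Cdc42ep4 (0.993, 0.992 and 0.991), and for Junb Itga1, Dusp5 and Kcnab1 (0.990, 0.989 and 0.988). Dusp5, a phosphatase that acts on ERK, was at 0, 18.1 and 5.20 CPM in wild-type and 0.0594, 10.6 and 2.29 CPM in Rad21-/- cells at 0, 2 and 8 h. The correlations rest on 6 points and were picked as the highest of all genes, so they describe likeness only.

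Other genes of the pathway were read from lists written with earlier results known. Of 25 other immediate-early genes, 16 had at least 100 UMIs, and 14 of these were past 2-fold higher at 2 h in each genotype. A single gene was lower in wild-type and none in Rad21-/- cells. Over all genes, 4.21% were higher and 4.54% lower in wild-type cells, and 4.28% and 3.65% in Rad21-/- cells. Dusp2 and Dusp1, phosphatases that switch off MAP kinases, had the largest log2 ratios, at 5.45 and 5.10 in wild-type cells. The Rad21-/- ratios were 5.07 and 4.30. From 2 h to 8 h, 9 of 16 were past 2-fold lower in wild-type and 12 of 16 in Rad21-/- cells, and none was higher. Over all genes, 12.7% and 5.58% were lower. Between genotypes, 3 of the 16 were past 2-fold lower in Rad21-/- cells untreated, 6 at 2 h and 4 at 8 h, and 1 was higher, at 8 h. Over all genes, 4.8%, 6.25% and 4.16% were lower at these times, and 9.09% were higher at 8 h. Plk2, a Polo-like kinase, was lower in Rad21-/- cells at every time (log2 ratios of -2.09, -2.36 and -2.57), and Dusp1 had a log2 ratio of -3.17 at 8 h.

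Among 16 other AP-1 and leucine zipper partners with enough UMIs, 2 were past 2-fold higher and 2 lower at 2 h in wild-type cells, and 2 and 0 in Rad21-/- cells. Over all genes, 4.21% were higher and 4.54% lower at 2 h in wild-type cells, and 4.28% and 3.65% in Rad21-/- cells. Maff, a small MAF factor, had log2 ratios of 3.52 and 4.16, and Jdp2, which pairs with JUN and represses, of 1.68 and 1.15. Batf, which pairs with JUN proteins in immune cells, had log2 ratios of 8 h to untreated of 3.94 and 3.33. Between genotypes, 1 of the 16 was past 2-fold higher and 1 lower in Rad21-/- cells at 2 h, and likewise at 8 h. Over all genes 3.6% were higher and 6.25% lower at 2 h, and 9.09% and 4.16% at 8 h. Jdp2 was the lower gene, with log2 ratios of -1.24 at 2 h and -1.13 at 8 h. The higher gene was Creb1 at 2 h (1.12) and Maff at 8 h (1.27). Among 8 EGR corepressors and serum response factors none was past 2-fold in wild-type cells at 2 h or between genotypes at any time, and Nab2, a corepressor of EGR proteins, had a log2 ratio of 1.07 at 2 h in Rad21-/- cells. Of 18 MAP kinases and their activators, 1 was past 2-fold higher at 2 h in each genotype. This was Map3k8, which activates ERK downstream of TLR4, with log2 ratios of 1.52 and 2.46. Mapk9, which encodes the kinase JNK2, was past 2-fold lower in wild-type cells at 2 h, with a log2 ratio of -1.37, and none was lower in Rad21-/- cells. None of the 18 was past 2-fold between genotypes untreated or at 2 h, and 3 were higher in Rad21-/- cells at 8 h, where 9.09% of all genes were.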

How the data were processed

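MARS-seq libraries of single sorted macrophages were mapped by the authors with GEMTools to the mouse genome (GRCm38.p4, Gencode M8). Wells with many spike-in or few mapped reads were removed, only unambiguous reads were kept, and these were collapsed by UMI. The authors deposited the resulting UMI counts as whole numbers, without scaling. Cell names gave the sample and the pool of each cell.

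Analyses used scipy 1.17.1, pandas 2.3.3 and numpy 2.4.6 under Python 3.11.15, with matplotlib 3.10.9 for figures. Shares carry Clopper-Pearson intervals, differences of shares Newcombe intervals and ratios of thinned UMIs exact conditional binomial intervals, all at 95% and for counting error only. Because thinning left out cells below 3800 UMIs, 154 to 228 cells per sample remained. A gene was called past 2-fold on the log2 ratio of mean CPM with 1 CPM added, among genes with at least 100 UMIs over all samples. Odds ratios were taken over pools by the Mantel-Haenszel sums. Where such a sum was 0, the ratio came from the table summed over pools, with 0.5 added to each of its cells. No doublet caller was run, since cells had been sorted singly.

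The 10 genes and all lists were chosen with earlier results of these data known. Named beside them are, from each list, the 2 genes with the largest log2 ratio in a comparison described, the 3 genes most like Egr1, Egr2 and Junb, and Rad21; Cd14 and Hspa1b come from the marker lists by the same rule. Alternatives were thinning at 3800 or 5500 UMIs, leaving out wells over 25000 UMIs, summing UMIs before scaling, 10 CPM added, leaving out each pool, weighting pools equally, at least 2 UMIs per positive cell, no filter on low counts and, for pairs, all UMIs or no strata. The steps recovered known values in simulated data. Promoter sequences come from RefSeq (GRCm38.p6), matched by symbol.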

Additional observations from a re-analysis of the deposited data

Results flagged for a closer look

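In the 3 cases flagged, the samples of the genotypes lay on opposite sides of 0 under the same comparison. These are not all such cases. Ier2 at 8 h against untreated had log2 ratios of 0.23 in wild-type and -1.85 in Rad21-/- cells. For Egr2 they were 0.07 and -0.39 in that comparison, and for Ier3 at 8 h against 2 h they were 0.68 and -0.04. For Jun at 2 h against untreated, the log2 ratio in Rad21-/- minus that in wild-type cells was 1.86 (1.65 and -0.22). For Jun at 8 h against untreated, the difference was 1.45 (0.64 and -0.81). For Fosl2 at 8 h against 2 h, it was -2.57 (-1.91 and 0.66). With 1 sample per genotype and time these differences were not tested. No group was large enough for a search for samples that stand apart.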

How the results depend on the processing

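Counting depth limits Egr1, Egr2 and Fos at 8 h, where samples held at most 7 UMIs of each. No paired analysis was possible because each genotype and time is 1 sample and the labels give no replicate numbers, and no replicate could be left out. Without a filter on low counts, the genes past 2-fold went from 1042 to 2743, 2797 to 4954 and 2204 to 4130 in wild-type cells (2 h, 8 h, 8 h against 2 h), from 945 to 2601, 1572 to 3198 and 1419 to 3078 in Rad21-/- cells, and from 826 to 2228, 1173 to 2979 and 1578 to 3142 between genotypes at 0, 2 and 8 h, since more genes were tested. Of the 10 genes, the number past 2-fold between genotypes in untreated cells was 5, and 3 at either thinning depth and 1 with 10 CPM added. At 8 h it was 4, and 2 with 10 CPM added. At 2 h it was 2, and 2 to 5 when a pool was left out, with 5 without the fifth pool at 2 h in order of name. In Rad21-/- cells at 8 h against untreated it was 6, and 10 after thinning to 5500 UMIs. The difference in the mean number of genes found per cell was 2.42, 1.53 and -0.89 in wild-type cells (2 h and 8 h against untreated, 8 h against 2 h). It was 1.83, 1.26 and -0.57 after thinning to 3800 UMIs, -0.56 for the last at 5500 UMIs, and 1.87 and 1.22 for the first ones with at least 2 UMIs. In Rad21-/- cells it was 2.79, 1.46 and -1.33. It was 2.19 and 0.85 for the first ones at 3800 UMIs, 2.49 for the first at 5500 UMIs, and 1.75, 0.97 and -0.78 with at least 2 UMIs. Between genotypes it was -0.48 untreated (-0.16 with at least 2 UMIs) and -0.55 at 8 h (-0.81 at 3800 UMIs). The median log2 odds ratio of pairs was -0.19 in untreated wild-type cells (0.37 with all UMIs), 0.67 in untreated Rad21-/- cells (-0.78 at 5500 UMIs) and -0.23 in Rad21-/- cells at 8 h (0.68 with all UMIs), so no sign is given to these medians. The cause was not tested. No difference in share or log2 ratio that was called changed sign under these alternatives. In 8 cases a gene past 2-fold came within 2-fold when a pool was left out: Fosl2 and Ier2 in wild-type cells at 2 h, as given above, Ier2 in wild-type cells from 2 h to 8 h (-1.18, and -0.73 without the fifth pool at 2 h), Fos in Rad21-/- cells at 2 h (-1.15, to -0.81 without the sixth) and from 2 h to 8 h (-1.30, and -0.71 without the eighth), Jun in Rad21-/- cells from 2 h to 8 h (-1.01, to -0.94 without the seventh), and Egr1 and Ier2 between untreated genotypes (1.09 each, to 0.62 and 0.71 without the sixth and the third untreated pool).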
